A study of Mus musculus with 24 samples.

Results

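The response to B2m editing was compared between 2 mouse tumour cell lines, LLC1 and AKR, as a difference of differences. For each gene the change in LLC1 (sgB2m minus sgNT) was set against the change in AKR (sgB2m minus sgNT), and the difference between them was tested. The members are the 14211 genes with a log2 normalised count of at least 3.5 in at least 3 libraries of both lines, of 34866 genes listed in the series. There were 27398 genes listed for LLC1 and 28237 for AKR. A further 1112 genes passed in LLC1 only and 1671 in AKR only, and they are not compared here. The filter can be met by 1 group alone, so that some members have no reads in another group.

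B2m encodes beta-2-microglobulin, the light chain that pairs with every classical MHC class I heavy chain and with several class I-like proteins. Without it, heavy chains are not stably displayed at the cell surface and peptides are not shown to CD8+ T cells. MHC class I molecules are loaded in the endoplasmic reticulum, where the peptide transporter, chaperones and the edited light chain meet. The comparison asks which other transcripts moved with the guide in both lines, and which moved in 1 line or in opposite directions.

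The tested groups were LLC1 sgB2m and AKR sgB2m, cells of each line carrying a guide RNA against B2m, and their controls were LLC1 sgNT and AKR sgNT, which carry a non-targeting guide. LLC1 is labelled as a Lewis lung carcinoma line and AKR as an esophageal carcinoma line, and both grew in DMEM with serum. Each of the 4 groups had 3 libraries, so 12 of the 24 libraries of the series are used. The labels do not say whether edited cells were clones or pools, or whether the 3 libraries of a group came from separate cultures, so p-values measure the spread between these libraries, which may be technical. Each line also carries its own guide populations and its own table with its own size factors, so only changes, never levels, are compared between lines.

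Depth, in megareads (Mreads) counted to genes per library, was 27.4 to 27.9 Mreads in LLC1 sgB2m, 26.1 to 28.1 in LLC1 sgNT, 29.7 to 32.2 in AKR sgB2m and 28.3 to 32.9 in AKR sgNT. Mitochondrial transcripts took 4.52% ± 0.083 of reads in LLC1 sgB2m and 4.43% ± 0.056 in LLC1 sgNT, and 4.03% ± 0.012 in AKR sgB2m and 3.52% ± 0.026 in AKR sgNT (SD, n = 3). The labelled origins were weakly marked. In LLC1, 3 of 14 alveolar and airway markers averaged a log2 value of 6 or more in sgNT, and the surfactant genes Sftpc and Sftpb were at or near 0. In AKR, 5 of 20 squamous markers reached that level, among them Krt13 and Sox2, while Krt5, Krt6a and Ivl had no reads. Of 17 T and NK cell markers, 15 had no reads in LLC1 and 14 had none in AKR.

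Editing was followed by broad changes in both lines. In LLC1, 2885 genes rose (20.3% of those tested) and 3081 fell (21.7%), and in AKR 3038 rose (21.4%) and 3402 fell (23.9%), each at an adjusted p below 0.05. Genes called in both lines numbered 3362, which is 56.4% of the LLC1 calls and 52.2% of the AKR calls. Of these, 2168 (64.5%) moved the same way, with 972 rising in both (6.84% of genes tested) and 1196 falling in both (8.42%). The other 1194 moved in opposite directions, with 615 rising in LLC1 and falling in AKR (4.33%) and 579 falling in LLC1 and rising in AKR (4.07%). The difference between the lines was called for 5730 genes (40.3%), split into 2873 with the higher change in LLC1 (20.2%) and 2857 with the lower change in LLC1 (20.1%).

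Most changes were small, with a median absolute log2 change of 0.223 in LLC1 and 0.239 in AKR and a median absolute difference of 0.297. Calls of at least 2-fold numbered 250 rising and 248 falling in LLC1, and 257 rising and 282 falling in AKR. Both lines had 16 genes that rose and 27 that fell at least 2-fold, and 23 changed that much in opposite directions, 7 of them rising in LLC1 and 16 falling in LLC1. Across the 14211 genes the changes in the lines had a Pearson r of 0.102 and a Spearman rho of 0.146, and 55.9% had the same sign. These are descriptions across genes, which are not independent. Of the 2168 genes called the same way in both lines, the difference was also called for 721, of which 354 changed more in LLC1 and 367 more in AKR. For the other 1447 it was not called, which does not show that they changed alike.

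**Figure D1:**
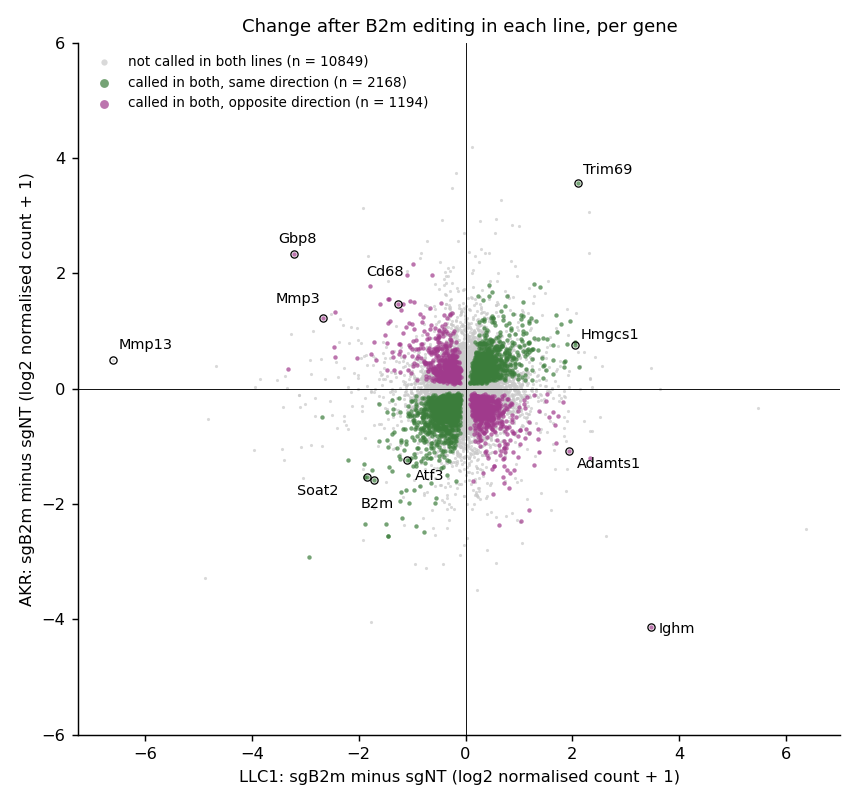
Change after B2m editing in LLC1 (x axis) and AKR (y axis), as sgB2m minus sgNT on the log2(normalised count + 1) scale, 1 point per gene for 14211 genes. The 2168 genes called the same way in both lines lie lower left and upper right of the origin, and the 1194 called in opposite directions lie upper left and lower right, with Ighm and Gbp8 far from the centre.

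B2m itself fell in both lines and was still read in every library. B2m (ENSMUSG00000060802, chromosome 2, 122147686 to 122153083, plus strand, mm10) had normalised counts of 4993, 5180 and 4963 in LLC1 sgB2m, against 16771, 16459 and 16455 in LLC1 sgNT. It had 4694, 4096 and 4137 in AKR sgB2m, against 12476, 13147 and 12827 in AKR sgNT. The guide groups were far apart in each line, and all 12 libraries fit their labels. The log2 change was -1.71 ± 0.045 in LLC1 (SE, adjusted p = 2.75e-13), which is 3.28-fold lower, and -1.57 ± 0.045 in AKR (adjusted p = 3.29e-12), which is 2.97-fold lower. The difference of -0.14 ± 0.064 was not called (adjusted p = 0.0966). Gene-level counts cannot tell edited transcripts from intact ones.

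The largest shared rise, by the smaller of the changes in the lines, was that of Trim69, a RING-type TRIM family gene that is the next tested gene downstream of B2m on the same strand (chromosome 2, 122160700 to 122179027). Trim69 counts were 30.7, 41.3 and 25.8 in LLC1 sgB2m and 2.03, 16.8 and 7.36 in LLC1 sgNT. In AKR they were 135, 130 and 94.1 in sgB2m and 9.92, 9.73 and 7.7 in sgNT. The groups did not overlap in either line, and this held for 53% of all genes tested in LLC1 and 54% in AKR. The change was 2.11 ± 0.48 in LLC1 (adjusted p = 0.00235) and 3.57 ± 0.48 in AKR, a fitted difference of -1.46 ± 0.68. No test is given for AKR or the difference, since Trim69 passed the filter in AKR through sgB2m alone. Trim69 also rose in Hepa1-6, by 4.41 (adjusted p = 4.27e-05), and was not tested in MC38. It was below the filter in 4 of the alternative settings and kept its sign in the other 20. Among the 10 tested neighbours of B2m, 5 on each side, Eif3j1 fell by 0.45 in each line, while Gatm and Spata5l1 fell in LLC1 and rose in AKR (these were named after their values were seen).

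The counts of each gene list below are to be read beside the shares over all genes. In LLC1 20.3% rose and 21.7% fell, in AKR 21.4% rose and 23.9% fell, and the difference was called for 40.3%. Both lines rose for 6.84% and fell for 8.42%. Of the gene lists, that of the ATF4 response had the largest share of members called the same way in both lines. ATF4 is a transcription factor whose translation increases when amino acids run short or the endoplasmic reticulum is stressed, and it binds amino acid response elements at genes of amino acid synthesis, amino acid transport and stress feedback. Of 29 ATF4 genes tested, 25 fell in LLC1 and 28 in AKR, and 24 fell in both, with medians of -0.51 in LLC1 and -0.67 in AKR, beside 0.01 and 0 over all genes. The 2 that parted in sign were Nupr1, a stress-induced chromatin factor, which fell in LLC1 and rose in AKR, and Psat1, which did the opposite (named after its values were seen).

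To show where such elements lie, 200 upstream bases are given for ATF4 genes that fell in both lines (Slc7a11 was chosen after its values were seen), ending 26 bases before the RefSeq transcription start (GRCm38.p6), each in the direction of the gene. Capitals mark TGATGNAA on either strand, a form of the amino acid response element. Atf3 lies at chr1:191183359-191183558, minus strand; Chac1 at chr2:119351017-119351216, plus strand; and Slc7a11 at chr3:50443639-50443838, minus strand.
Atf3: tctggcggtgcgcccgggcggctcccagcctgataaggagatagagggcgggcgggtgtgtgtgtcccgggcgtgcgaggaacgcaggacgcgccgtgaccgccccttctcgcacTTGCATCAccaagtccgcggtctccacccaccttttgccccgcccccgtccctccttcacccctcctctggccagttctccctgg
Chac1: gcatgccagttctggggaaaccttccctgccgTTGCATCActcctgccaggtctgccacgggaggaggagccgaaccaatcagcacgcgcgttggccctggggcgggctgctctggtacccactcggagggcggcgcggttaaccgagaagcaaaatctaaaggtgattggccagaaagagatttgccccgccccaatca
Slc7a11: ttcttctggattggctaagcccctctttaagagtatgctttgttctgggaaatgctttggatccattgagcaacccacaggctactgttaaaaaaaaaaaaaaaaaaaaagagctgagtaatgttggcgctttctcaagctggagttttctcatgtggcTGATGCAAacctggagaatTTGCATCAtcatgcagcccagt
Slc7a11 holds 2 such elements in opposite orientation, and Atf3 and Chac1 hold 1 each. Of the 29 ATF4 genes, 25 matched the RefSeq promoter table, with 29 windows of 250 upstream bases. Of these windows 8 (27.6%) hold the motif, against 3.45% of the 32851 windows in the table. Nupr1, 1 of the 2 members that moved in opposite directions, holds it too. A match is a description of the letters and not a binding site.

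Atf3, a stress-induced repressor of the ATF family, had counts of 459, 414 and 392 in LLC1 sgB2m and 916, 935 and 842 in LLC1 sgNT. In AKR it had 2317, 2289 and 2287 in sgB2m and 5267, 5437 and 5543 in sgNT. It was lower in each sgB2m library than in each control of its line, 2.13-fold in LLC1 (-1.09, adjusted p = 1.57e-09) and 2.36-fold in AKR (-1.24, adjusted p = 4.05e-10), and the difference of 0.15 was not called (adjusted p = 0.186). Ppp1r15a, which recruits the phosphatase that restores translation after stress, fell in both lines, by 1.22 ± 0.048 in LLC1 and by 0.92 ± 0.048 in AKR.

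Shared direction did not mean equal size in this group, since the difference was called for 22 of the 29, with 12 changes higher in LLC1 and 10 lower. Chac1, which degrades glutathione, had counts of 327, 299 and 352 in LLC1 sgB2m against 983, 1051 and 964 in LLC1 sgNT, and 3414, 3386 and 3137 in AKR sgB2m against 3865, 3986 and 4028 in AKR sgNT. Its fall was 3.06-fold in LLC1 and 1.2-fold in AKR, a difference of -1.36 (adjusted p = 1.73e-08). Aldh1l2, a mitochondrial folate enzyme, showed the reverse order, with falls of 1.22-fold in LLC1 and 2.11-fold in AKR (difference 0.80 ± 0.087, adjusted p = 3.81e-06). Slc7a11, the cystine transporter, fell by 1.02 ± 0.073 in LLC1 and by 0.39 ± 0.073 in AKR.

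Genes of endoplasmic reticulum chaperones and degradation, which fold secreted proteins and remove misfolded ones, fell more often than they rose. Of 19 tested, 11 fell in LLC1 and 15 in AKR, and all 11 that fell in LLC1 fell in AKR too, against 8.42% of all genes that fell in both. Dnajc3, a co-chaperone of BiP, rose by 0.12 in LLC1 and fell by 0.46 in AKR, and Sdf2l1 rose by 0.47 in AKR, with 0.17 in LLC1 that was not called (Sdf2l1 was named after its values were seen). The median change was -0.23 in LLC1 and -0.46 in AKR. Hspa5, the main lumenal chaperone BiP, had counts of 30080, 30651 and 31346 in LLC1 sgB2m and 52060, 54640 and 52409 in LLC1 sgNT, and of 78524, 73631 and 76323 in AKR sgB2m and 120944, 122828 and 122168 in AKR sgNT. It was 1.73-fold lower in LLC1 and 1.6-fold lower in AKR (difference -0.11 ± 0.046, adjusted p = 0.07). Ern1, the stress sensor IRE1, fell by 0.72 in LLC1 and by 0.79 in AKR. Sel1l, an adaptor of the degradation ligase, parted the lines, with -0.01 ± 0.038 in LLC1 and a fall of 0.96 ± 0.038 in AKR (difference 0.94, adjusted p = 4.08e-09).

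**Figure D2:**
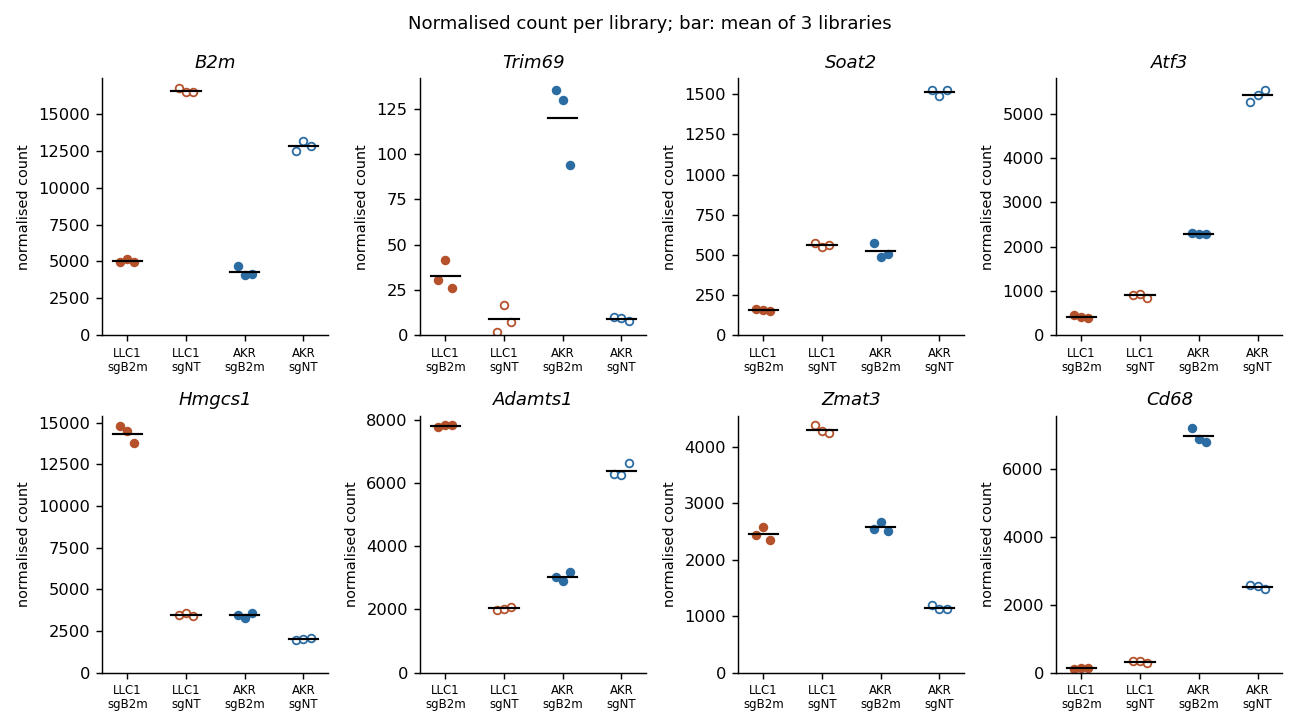
Normalised count (y axis, linear, from 0) in each of the 3 libraries of LLC1 sgB2m, LLC1 sgNT, AKR sgB2m and AKR sgNT for 8 genes, with filled points for sgB2m, open points for sgNT and a bar at the mean. B2m, Soat2 and Atf3 are lower in sgB2m of both lines and Trim69 and Hmgcs1 higher, while Adamts1, Zmat3 and Cd68 move in opposite directions.

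Single genes with the largest shared changes came from several functions. Besides B2m, leading shared falls were those of Soat2, the enzyme that esterifies cholesterol for storage, P2rx3, an ATP-gated ion channel, and Cdsn, a desmosomal adhesion protein. Soat2 had counts of 161, 155 and 150 in LLC1 sgB2m and 574, 552 and 559 in LLC1 sgNT, and of 573, 488 and 505 in AKR sgB2m and 1529, 1489 and 1525 in AKR sgNT. It was 3.62-fold lower in LLC1 and 2.9-fold lower in AKR, with a called difference of -0.31 (adjusted p = 0.0315). P2rx3 was 3.71-fold and Cdsn 3.37-fold lower in LLC1, and they were 2.94-fold and 2.66-fold lower in AKR.

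Among other shared falls, Myc, the growth-promoting transcription factor, was 2.37-fold lower in LLC1 and 2.24-fold lower in AKR (difference -0.08, adjusted p = 0.396). Lcn2, an iron-siderophore carrier and NF-kB target, was 2.21-fold lower in LLC1 and 2.05-fold lower in AKR. Cox6a2, a respiratory chain subunit, fell by 1.49 in LLC1 and by 2.35 in AKR. Plcb4 and Pard3b were lower in sgB2m of both lines, at low counts in LLC1 and, for Plcb4, in AKR too. No test is given for Plcb4, since it passed the filter in AKR through sgNT alone, and its shared call of the fit was lost in 9 alternative settings. The shared call of Pard3b was lost in 6 (highest adjusted p = 0.113). For both genes these settings included the removal of single LLC1 libraries.

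Shared rises were led, after Trim69, by Cryab, a small heat shock chaperone, Lipg, an endothelial-type lipase, Mylpf, a muscle myosin light chain, Sec14l2, a lipid transfer protein, and Dhcr7, which makes cholesterol from its last precursor. Cryab counts were 229, 231 and 219 in LLC1 sgB2m against 95.5, 106 and 79.9 in LLC1 sgNT, and 654, 601 and 681 in AKR sgB2m against 165, 220 and 166 in AKR sgNT. It was 2.42-fold higher in LLC1 and 3.51-fold higher in AKR, with a called difference of -0.55 (adjusted p = 0.0346). Lipg rose by 1.69 in LLC1 and by 1.27 in AKR, and Mylpf rose by 1.96 in LLC1 and by 1.18 in AKR. Naip1, an inflammasome sensor from a family of near-identical copies whose reads may be split, and Cryl1 were also called, but the shared call of Naip1 was lost without LLC1 sgB2m replicate 3, without LLC1 sgNT replicate 1 and when all 24 libraries set the spread (highest adjusted p = 0.11), and that of Cryl1 in 13 settings (highest adjusted p = 0.188).

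Cxcl16, the chemokine in the title of the series and the ligand of CXCR6, was lower in sgB2m of both lines at low counts. It had 65.4, 59 and 65.1 in LLC1 sgB2m against 96.5, 138 and 173 in LLC1 sgNT, and 8.96, 7.14 and 3.76 in AKR sgB2m against 38.6, 22.4 and 25 in AKR sgNT. The groups did not overlap, as in 53% of all genes tested in LLC1 and 54% in AKR. The change was -1.06 ± 0.32 in LLC1 (adjusted p = 0.0155) and -1.99 ± 0.32 in AKR, a fitted difference of 0.93 ± 0.46. No test is given for AKR or the difference, since Cxcl16 passed the filter in AKR through sgNT alone. Without LLC1 sgNT replicate 3 the shared call of the fit was lost (adjusted p = 0.0792), and Cxcl16 was below the filter in 4 of the alternative settings.

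In sterol synthesis the lines parted in size more than in direction. Cholesterol is made from acetyl-CoA through mevalonate, squalene and lanosterol, and the genes of this route are switched on together by SREBP2 when membrane sterol is low. All 24 tested genes of cholesterol synthesis and uptake rose in LLC1, while in AKR 15 rose, 2 fell and 7 were not called. The difference was called for 23, each with the higher change in LLC1. The median change was 1.43 in LLC1 and 0.24 in AKR, with a median difference of 1.2, beside 0.02 over all genes.

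Along the route, Hmgcs1, which makes the precursor of mevalonate and was chosen after its values were seen, rose by 2.05 ± 0.044 in LLC1 and by 0.76 ± 0.044 in AKR (difference 1.29 ± 0.063, adjusted p = 9.12e-10). Fdft1, which joins 2 farnesyl units into squalene, had counts of 3877, 3889 and 3712 in LLC1 sgB2m and 1275, 1297 and 1300 in LLC1 sgNT, against 1934, 1631 and 1792 in AKR sgB2m and 1776, 1837 and 1854 in AKR sgNT. It was 2.96-fold higher in LLC1, while its groups overlapped in AKR (-0.03 ± 0.055). Lss, which closes the sterol ring, had the widest gap, with 6880, 6721 and 6610 in LLC1 sgB2m and 2064, 2014 and 2021 in LLC1 sgNT, and 1507, 1736 and 1586 in AKR sgB2m and 2225, 2198 and 2248 in AKR sgNT. It was 3.31-fold higher in LLC1 and 1.38-fold lower in AKR, a difference of 2.20 ± 0.067 (adjusted p = 3.57e-12).

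Msmo1, which removes methyl groups from lanosterol-derived sterols, rose by 1.5 in LLC1 and fell by 0.21 in AKR. Dhcr7 was the exception, with counts of 1500, 1567 and 1497 in LLC1 sgB2m against 631, 627 and 569 in LLC1 sgNT, and 1317, 1209 and 1328 in AKR sgB2m against 592, 502 and 621 in AKR sgNT. It was 2.5-fold higher in LLC1 and 2.25-fold higher in AKR, and the difference of 0.15 ± 0.11 was not called (adjusted p = 0.305). In AKR, Mvd, which makes the first isoprenoid unit, also rose 1.75-fold, beside 2.3-fold in LLC1.

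Of the sterol genes, 17 matched the promoter table with 20 windows, and 1 window, that of Hmgcs1, holds the sterol element TCACNCCAC on either strand, against 1.05% of all windows. It lies at chr13:119690126-119690325, plus strand, shown as above with the element in capitals.
Hmgcs1: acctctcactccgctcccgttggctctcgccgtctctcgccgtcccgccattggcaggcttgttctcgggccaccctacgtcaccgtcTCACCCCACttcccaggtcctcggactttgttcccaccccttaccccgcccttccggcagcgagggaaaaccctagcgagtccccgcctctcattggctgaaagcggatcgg
None of 21 windows of fatty acid genes holds these letters, which says nothing about binding by the factor elsewhere.

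Fatty acid synthesis and desaturation, controlled in part by the related factor SREBP1, also changed more in LLC1. Of 19 genes, 15 rose and 0 fell in LLC1, while 4 rose and 8 fell in AKR, and 17 had the higher change in LLC1. Scd2, a stearoyl-CoA desaturase, had counts of 74807, 73527 and 71921 in LLC1 sgB2m and 25884, 25299 and 25249 in LLC1 sgNT, and of 24946, 25517 and 25693 in AKR sgB2m and 26442, 26782 and 28060 in AKR sgNT. It was 2.88-fold higher in LLC1 and 1.07-fold lower in AKR, with no overlap of the groups in either line (difference 1.62 ± 0.044, adjusted p = 1.22e-12). Scd1 rose by 0.98 in LLC1 and fell by 0.38 in AKR, and Fads2, a desaturase of polyunsaturated fatty acids, rose by 1.10 in LLC1 and fell by 0.26 in AKR. Fasn, the fatty acid synthase, rose in both, by 0.95 in LLC1 and by 0.51 in AKR (difference 0.44, adjusted p = 4.88e-05).

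**Figure D3:**
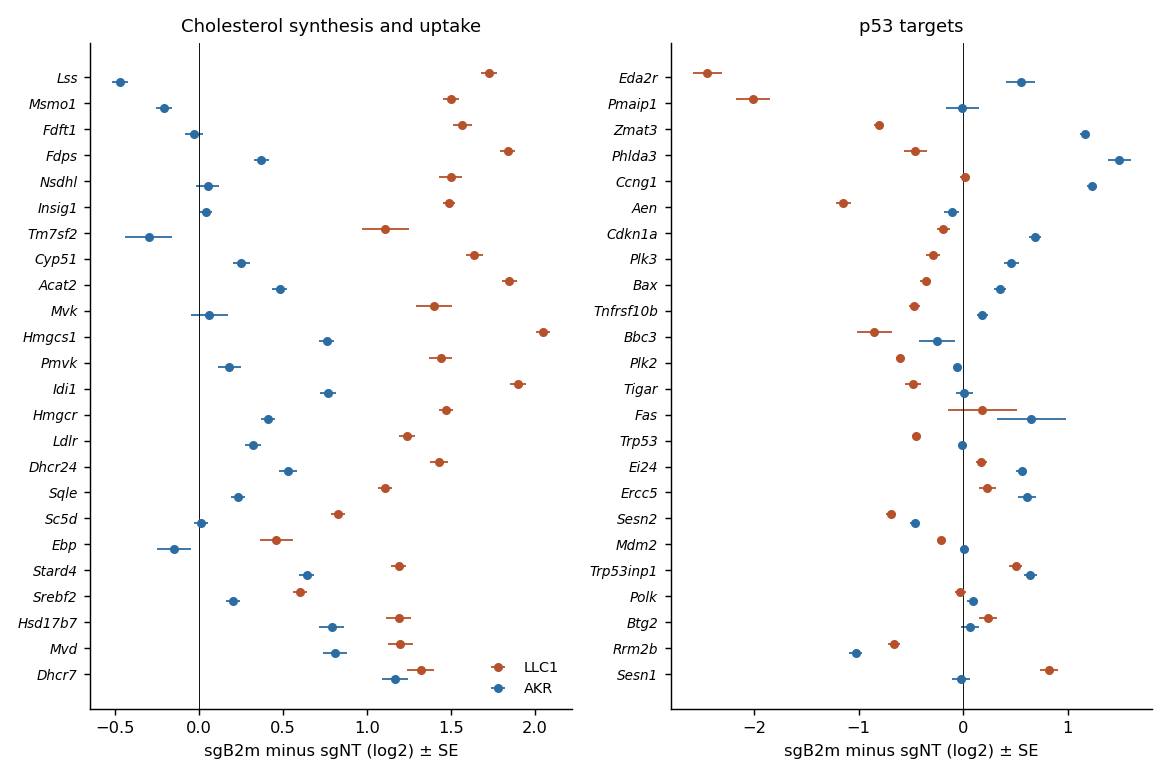
Change after editing (x axis, log2 ± SE, 3 libraries per group) of each tested member of the cholesterol list (left panel) and the p53 target list (right panel), with LLC1 above AKR for each gene and genes ordered by the difference between the lines. In the cholesterol panel the LLC1 points lie right of the AKR points for all 24 genes, and in the p53 panel LLC1 lies left of AKR for most.

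Targets of p53, the DNA damage-responsive tumour suppressor, fell more often than they rose in LLC1 and rose more often than they fell in AKR. Of 24 tested, 16 fell and 5 rose in LLC1, while 2 fell and 11 rose in AKR. The difference was called for 19, with 17 lower in LLC1, 7 genes fell in LLC1 and rose in AKR, and 5 moved the same way in both. Zmat3, an RNA-binding p53 target, had counts of 2431, 2577 and 2350 in LLC1 sgB2m and 4383, 4280 and 4236 in LLC1 sgNT, and of 2538, 2668 and 2513 in AKR sgB2m and 1201, 1134 and 1119 in AKR sgNT. It was 1.75-fold lower in LLC1 and 2.23-fold higher in AKR (difference -1.97 ± 0.066, adjusted p = 1.05e-11). Eda2r, a TNF receptor family member, was 5.42-fold lower in LLC1, where its counts were 43.6, 65.9 and 38.3 in sgB2m and 269, 280 and 252 in sgNT, and it rose by 0.55 ± 0.14 in AKR.

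Not every target followed this order. Pmaip1, the pro-apoptotic NOXA, was 4.01-fold lower in LLC1, and its change in AKR was -0.01 ± 0.16. Rrm2b, a ribonucleotide reductase subunit, fell in both lines, by 0.66 in LLC1 and by 1.03 in AKR, and Trp53inp1, a stress-induced p53 cofactor, rose in both, by 0.50 in LLC1 and by 0.64 in AKR.

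Of 21 NF-kB targets, 9 fell and 2 rose in LLC1, 4 fell and 8 rose in AKR, and 11 of the 13 called differences were lower in LLC1. Ptgs2, the inducible cyclooxygenase of prostaglandin synthesis, had counts of 2401, 2443 and 2423 in LLC1 sgB2m and 6034, 6361 and 6248 in LLC1 sgNT, and of 36282, 38429 and 38199 in AKR sgB2m and 25715, 25551 and 26241 in AKR sgNT. It was 2.57-fold lower in LLC1 and 1.46-fold higher in AKR (difference -1.90 ± 0.046, adjusted p = 3.88e-13). Saa3, an acute-phase protein, ran the other way, 7.02-fold lower in AKR (-3.04 ± 0.35) and -0.43 ± 0.35 in LLC1. In LLC1 its change was not called (adjusted p = 0.354), although its groups did not overlap, as in 53% of all genes tested there.

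Of 28 listed chemokines, 11 were tested, of which 7 fell and 0 rose in LLC1, and 4 fell and 4 rose in AKR. All 4 that rose in AKR fell in LLC1, and they were Ccl2, Ccl7, Ccl20 and Cxcl1 (Cxcl1 was named after its values were seen). Ccl2, which attracts monocytes, had counts of 5237, 5477 and 5292 in LLC1 sgB2m and 9639, 9395 and 9738 in LLC1 sgNT, and of 12267, 10678 and 11050 in AKR sgB2m and 4466, 4852 and 4463 in AKR sgNT. It was 1.8-fold lower in LLC1 and 2.47-fold higher in AKR, a difference of -2.15 (adjusted p = 5.37e-12). Ccl7, its neighbour on chromosome 11, was 2.13-fold lower in LLC1 and 3.95-fold higher in AKR, and Ccl20, a ligand of CCR6, was 3.32-fold lower in LLC1 and 1.76-fold higher in AKR. Cxcl5, a neutrophil attractant, fell in both lines, by 0.55 in LLC1 and by 0.66 in AKR, a shared call that was lost in 3 settings (highest adjusted p = 0.333).

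Of 15 cytokines and growth factors tested, 1 rose and 8 fell in LLC1, and 3 rose and 3 fell in AKR. Over all genes, 20.3% rose and 21.7% fell in LLC1, and 21.4% rose and 23.9% fell in AKR. Il11, of the interleukin-6 family, had counts of 20.8, 6.89 and 23 in LLC1 sgB2m against 46.7, 42.5 and 39.9 in LLC1 sgNT, and 728, 588 and 629 in AKR sgB2m against 191, 260 and 212 in AKR sgNT, a difference of -3.01 ± 0.44 (adjusted p = 5.99e-05). Lif, of the same family, fell by 0.44 in LLC1 and rose by 0.51 in AKR. Vegfa, the angiogenic factor, fell in both, 2.25-fold in LLC1 and 1.61-fold in AKR, and Csf1, the macrophage growth factor, fell by 0.77 in LLC1 and by 0.34 in AKR.

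Of 16 ERK feedback genes and ligands, 10 fell and 5 rose in LLC1 and 4 fell and 5 rose in AKR, and 9 of 13 called differences were lower in LLC1. Spry1, a receptor signalling antagonist, rose in both lines, by 0.73 in LLC1 and by 0.60 in AKR, but the shared call was lost in 2 settings (highest adjusted p = 0.235). Dusp4, a MAP kinase phosphatase, was 2.34-fold lower in LLC1 and 1.22-fold higher in AKR, and the EGF receptor ligands Areg and Hbegf fell by 1.34 and 1.01 in LLC1 and rose by 0.33 and 0.28 in AKR. Among 21 immediate early and heat shock genes, 5 fell in both lines, and 8 of 12 called differences were lower in LLC1. Fosl1 fell by 1.07 in LLC1 and rose by 0.33 in AKR, while Fos rose by 0.75 in LLC1 and fell by 0.67 in AKR. Klf4 fell in both, by 0.46 in LLC1 and by 1.07 in AKR.

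Of 32 type I interferon-stimulated genes, which act against viruses, 18 rose and 3 fell in LLC1, 12 rose and 2 fell in AKR, and 6 rose in both. Irf7, a master regulator of interferon genes, rose by 1.17 in LLC1 and by 0.68 in AKR, but its shared call was lost without any 1 of the 6 AKR libraries (highest adjusted p = 0.072). Ifit2, an RNA-binding effector, rose by 0.68 in LLC1 and by 0.73 in AKR. Stat2, which carries the signal of the type I receptor, had 1082, 977 and 1066 in LLC1 sgB2m against 460, 462 and 395 in LLC1 sgNT, and 686, 774 and 595 in AKR sgB2m against 490, 425 and 514 in AKR sgNT, with no overlap in either line (chosen after its values were seen). Ifit3 was 4.28-fold higher in LLC1, and its change of 0.64 in AKR was not called (difference 1.47, adjusted p = 0.0169).

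Interferon elements are shown for Stat2, which rose in both lines, and Ifit3, which rose in LLC1. Capitals mark GAAANNGAA on either strand. Stat2 lies at chr10:128270273-128270472, plus strand, and Ifit3 at chr19:34583304-34583503, plus strand.
Stat2: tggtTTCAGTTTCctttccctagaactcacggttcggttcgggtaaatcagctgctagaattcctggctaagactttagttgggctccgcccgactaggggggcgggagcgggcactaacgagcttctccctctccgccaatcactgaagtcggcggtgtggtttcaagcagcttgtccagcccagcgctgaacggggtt
Ifit3: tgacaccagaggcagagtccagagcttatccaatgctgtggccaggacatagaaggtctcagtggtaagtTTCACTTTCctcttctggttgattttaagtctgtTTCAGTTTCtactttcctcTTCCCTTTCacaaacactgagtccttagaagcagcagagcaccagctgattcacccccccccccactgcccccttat
Of 29 windows of the type I list, 9 (31%) hold the motif, against 7.13% of all windows. The 3 members that fell in LLC1, Bst2, Trim25 and Trim30a, hold it too, as does Isg15, which was not called in either line. Trim25 and Isg15 were named after their values were seen.

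Of 19 interferon-gamma GTPases and regulators, a list that includes receptors and kinases of the pathway, 4 fell and 3 rose in LLC1, 3 fell and 8 rose in AKR, and 8 of 10 called differences were lower in LLC1. Gbp8, a guanylate-binding GTPase, had counts of 4.96, 3.94 and 1.91 in LLC1 sgB2m and 43.7, 27.7 and 51.5 in LLC1 sgNT, and of 34.8, 33.7 and 35.7 in AKR sgB2m and 6.61, 8.76 and 3.85 in AKR sgNT. It was 11.4-fold lower in LLC1 and 5.42-fold higher in AKR, on few reads and within a family of similar copies. Irf8 and Gbp4 fell in LLC1, by 2.91 and 2.17, and Irf8 passed the filter there through sgNT alone. In AKR their changes of 0.50 and 0.80 were not called, although their groups did not overlap, as in 54% of all genes tested there. By mean counts Irf8 was 1.41-fold and Gbp4 1.76-fold higher in AKR sgB2m.

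The partners of B2m did not follow it as a group. Of 13 class I heavy chain genes, 6 rose and 2 fell in LLC1, and 8 rose and 1 fell in AKR. Over all genes, 20.3% rose and 21.7% fell in LLC1, and 21.4% rose and 23.9% fell in AKR. H2-T23, the gene of Qa-1, fell by 0.30 ± 0.077 in LLC1 and rose by 0.51 ± 0.077 in AKR (difference -0.81, adjusted p = 2.85e-05). Mr1, which presents vitamin metabolites to MAIT cells, rose in both, by 0.40 in LLC1 and by 0.60 in AKR. H2 genes are near-identical, so reads may be split between them. Of 16 peptide loading genes, 2 rose and 6 fell in LLC1, and 5 rose and 6 fell in AKR. Of their differences 4 were higher and 6 lower in LLC1, beside 20.2% and 20.1% of all genes. Nlrc5, the transactivator of class I genes, fell by 0.31 in LLC1 and rose by 0.37 in AKR. Psmb8, an immunoproteasome subunit, had 8.92, 0 and 0 in LLC1 sgB2m against 22.4, 20.7 and 21 in LLC1 sgNT. It passed the filter in LLC1 through sgNT alone, so no test is given, although it is counted in the 6 falls and 6 lower differences. Its change in AKR was 0.22 ± 0.59, not called, although its groups did not overlap there, as in 54% of all genes tested.

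Among 11 checkpoint and co-stimulatory ligands, 7 fell and 2 rose in LLC1, 1 fell and 4 rose in AKR with 6 not called, and 6 of 8 called differences were lower in LLC1. Cd40, the receptor of T cell help, had counts of 168, 160 and 162 in LLC1 sgB2m against 212, 219 and 214 in LLC1 sgNT, and 356, 325 and 336 in AKR sgB2m against 164, 171 and 162 in AKR sgNT. It was 1.32-fold lower in LLC1 and 2.05-fold higher in AKR, although the difference was not called when all 24 libraries set the spread (adjusted p = 0.0764). Nt5e, which makes adenosine, fell by 0.72 in LLC1 and rose by 0.94 in AKR, and Lgals9, a galectin, rose in both, by 0.98 in LLC1 and by 0.58 in AKR. Of 6 NK cell ligands, 3 had a called difference, beside 40.3% of all genes, and that of Raet1e was lost when all 24 libraries set the spread (adjusted p = 0.516). Pvr, a ligand of DNAM-1, fell by 0.42 in LLC1 (0.07 in AKR, not called), Raet1e, an NKG2D ligand, rose by 0.41 in LLC1 (0 in AKR, not called), and Cd47, which inhibits phagocytosis, fell by 0.45 in AKR (-0.07 in LLC1, not called).

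Of 24 mesenchymal and matrix genes, which build and remodel the extracellular scaffold, 9 rose and 8 fell in LLC1, 5 rose and 13 fell in AKR, and 12 of 17 called differences were higher in LLC1. Col3a1, a fibrillar collagen, had counts of 72611, 73442 and 71767 in LLC1 sgB2m and 29176, 30143 and 29806 in LLC1 sgNT, and of 13278, 13552 and 13677 in AKR sgB2m and 14556, 14242 and 14746 in AKR sgNT. It was 2.44-fold higher in LLC1 and 1.07-fold lower in AKR. Pdgfra, a growth factor receptor, rose in both, by 0.90 in LLC1 and by 0.80 in AKR. Of 9 epithelial genes, 5 had a called difference, beside 40.3% of all genes, with 2 higher and 3 lower in LLC1. Jup, a junction protein, rose by 1.17 in LLC1, with 0.30 in AKR that was not called, and the keratins Krt8 and Krt18 fell by 0.23 and 0.37 in LLC1 and rose by 0.54 and 0.37 in AKR. Neither keratin's difference was called when all 24 libraries set the spread (adjusted p = 0.528 for Krt8 and 0.439 for Krt18).

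Of 19 NRF2 targets, which defend against oxidants, 8 rose and 4 fell in LLC1, and 14 rose and 3 fell in AKR. All 8 that rose in LLC1 rose in AKR too, 2 fell in both lines, and 2 fell in LLC1 and rose in AKR. The difference was lower in LLC1 for 11 of the 12 called. Prdx1, a peroxiredoxin, was 1.27-fold higher in LLC1 and 2.27-fold higher in AKR. Ftl1, the light chain of ferritin, fell by 0.30 in LLC1 and rose by 1.28 in AKR. Of 13 iron genes, 3 fell in both lines, beside 8.42% of all genes. Of 29 hypoxia and glycolysis entries, 13 rose and 6 fell in LLC1 and 2 rose and 11 fell in AKR, beside 20.3% and 21.7% of all genes in LLC1 and 21.4% and 23.9% in AKR, and 16 of 21 called differences were higher in LLC1, among them Bnip3, a mitophagy receptor, which rose by 0.69 in LLC1 and fell by 0.48 in AKR. Of 28 cell cycle genes, 10 rose and 12 fell in LLC1 and 11 rose and 11 fell in AKR, beside the same shares of all genes. The difference was called for 24 of them, 10 higher and 14 lower in LLC1, beside 40.3% of all genes. Mki67, a marker of cycling cells, was 1.7-fold higher in LLC1 and 1.27-fold lower in AKR. Transcripts of the mitochondrial genome had medians of 0.03 in both lines.

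**Figure D4:**
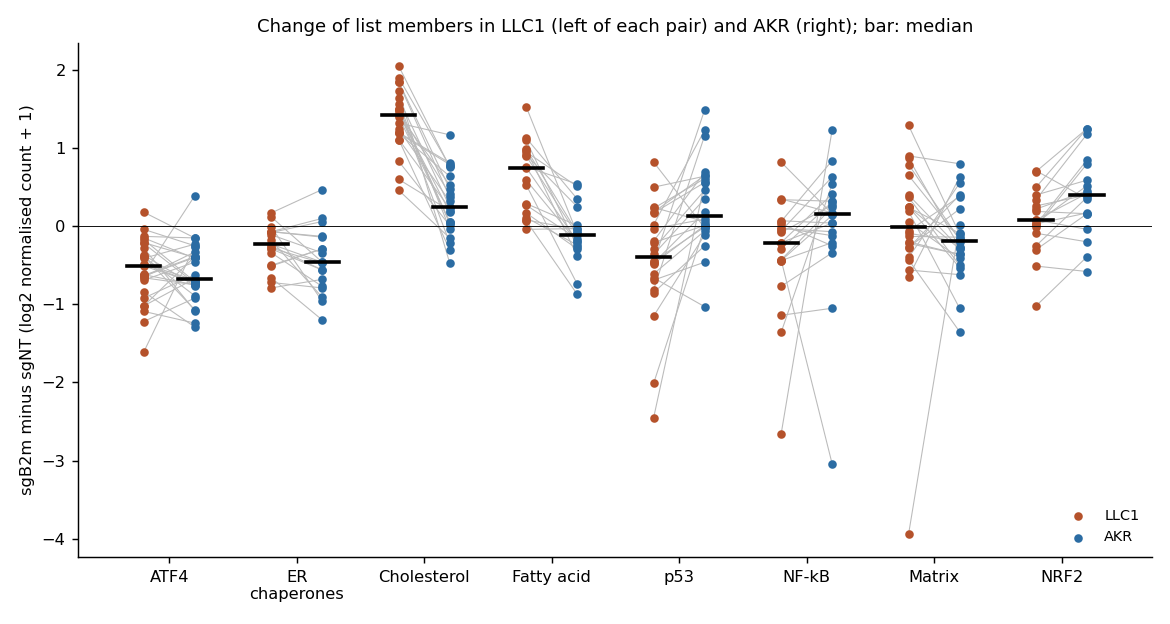
Change after editing (y axis, log2 of normalised count + 1) of the tested members of 8 gene lists, with LLC1 on the left and AKR on the right of each pair, a line joining the values of a gene and a bar at the median. Medians lie below 0 in both lines for the ATF4 and chaperone lists, and at 1.43 in LLC1 and 0.24 in AKR for the cholesterol list.

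The largest single differences were found for genes close to silent in 1 group. Ighm, the constant region of the immunoglobulin mu chain, had counts of 1097, 1137 and 1052 in LLC1 sgB2m and 87.4, 102 and 106 in LLC1 sgNT, against 0, 0 and 0 in AKR sgB2m and 11, 13.6 and 29.9 in AKR sgNT. It was 11.1-fold higher in LLC1 and at least 6.15-fold lower in AKR, taking 3 reads per library as the limit of a count of 0. Mmp13, a collagenase, had 0, 0 and 3.83 in LLC1 sgB2m and 147, 169 and 173 in LLC1 sgNT, and 1142, 1162 and 1228 in AKR sgB2m and 801, 779 and 938 in AKR sgNT. Its fitted difference of -7.09 ranged from -7.85 to -4.72 over the alternative settings, and no test is given since LLC1 passed the filter through sgNT alone.

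Tnc, the matrix glycoprotein tenascin-C, had 0 reads in the LLC1 sgB2m libraries and counts of 14.2, 17.8 and 11.6 in LLC1 sgNT, at least 4.95-fold lower, and its AKR groups overlapped. Basp1, a neuronal growth protein, had 0, 2.95 and 0 in LLC1 sgB2m against 63, 36.6 and 26.3 in LLC1 sgNT, and 11068, 10074 and 10602 in AKR sgB2m against 7957, 8269 and 7862 in AKR sgNT. Tnc and Basp1 passed the filter in LLC1 through sgNT alone, and no test is given for them. Tnc is counted in the 8 mesenchymal and matrix genes that fell in LLC1. Ptgfrn, a tetraspanin partner, was 10.9-fold lower in LLC1. Its change in AKR was 0.16 ± 0.25, not called, although its groups did not overlap there, as in 54% of all genes tested. Fitted differences of such genes depend on the constant added before the logarithm, and Tnc ranged from -4.95 to -1.51 over the alternative settings.

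Among abundant genes, Adamts1, a secreted protease that cleaves proteoglycans, had the clearest opposite change. It lies on chromosome 16 at 85793827 to 85803113 (minus strand, mm10). Its counts were 7761, 7833 and 7833 in LLC1 sgB2m and 1993, 2023 and 2083 in LLC1 sgNT, and 3030, 2884 and 3174 in AKR sgB2m and 6268, 6266 and 6616 in AKR sgNT. It was 3.84-fold higher in LLC1 and 2.11-fold lower in AKR, a difference of 3.02 ± 0.057 (adjusted p = 1.95e-14). Col12a1, a fibril-associated collagen, rose by 0.62 in LLC1 and fell by 2.36 in AKR, and Mrgprf rose by 2.36 in LLC1 with a change of -0.73 in AKR that was not called. Dhrs3, a retinal reductase, and Dzank1 had AKR changes of -3.02 and -2.68, with no reads in 2 of the 3 AKR sgB2m libraries. Dzank1 passed the filter in AKR through sgNT alone, while the third AKR sgB2m library of Dhrs3 had a count of 12.2. Their fitted differences ranged from 1.84 to 4.84 for Dhrs3 and from 2.01 to 4.85 for Dzank1 over the alternative settings.

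Cd68, a lysosomal glycoprotein best known in macrophages, had counts of 104, 146 and 139 in LLC1 sgB2m and 331, 334 and 268 in LLC1 sgNT, and of 7210, 6895 and 6807 in AKR sgB2m and 2576, 2557 and 2450 in AKR sgNT. It was 2.4-fold lower in LLC1 and 2.76-fold higher in AKR (difference -2.73 ± 0.15, adjusted p = 3.4e-09). The summed counts of 16 myeloid markers were 728 to 740 in LLC1 sgB2m, 705 to 924 in LLC1 sgNT, 7223 to 7577 in AKR sgB2m and 2749 to 2879 in AKR sgNT, and most of the AKR sum was Cd68. Adgre1, Fcgr1, Tyrobp and C1qa, which define macrophages, had no reads in either line, and 8 of the 16 markers had none in AKR. Cd14 was read in both lines, Itgax and Lyz2 mainly in LLC1, and Csf1r weakly in AKR, with mean log2 values of 4.16 in sgB2m and 3.13 in sgNT. The part of these markers in the Cd68 change was not tested. Mmp3, a stromelysin, Havcr2, the checkpoint receptor TIM-3, and Shroom3, an actin-binding shape regulator, likewise fell in LLC1 and rose in AKR. Mmp3 was 6.32-fold lower in LLC1 and 2.33-fold higher in AKR.

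What LLC1 and AKR shared was set beside the other lines of the series, MC38 and Hepa1-6, where 31.8% and 37.8% of tested genes were called. Of 963 shared rises tested in MC38, 161 rose and 257 fell, and of 927 tested in Hepa1-6, 147 rose and 311 fell. Of 1180 shared falls tested in MC38, 287 rose and 204 fell, and of 1141 tested in Hepa1-6, 432 rose and 226 fell. Over all genes, 15.9% rose and 15.8% fell in MC38 and 18.6% rose and 19.2% fell in Hepa1-6. Of 12674 genes tested in all 4 lines, 31 rose and 53 fell in every line.

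Median changes by chromosome were small and spread more widely in LLC1 than in AKR. The median change in LLC1 was 0.129 over 482 genes of chromosome 14 and 0.118 over 929 genes of chromosome 5, and -0.099 over 763 genes of chromosome 17 and -0.076 over 571 genes of chromosome 15. In AKR the medians of these chromosomes were -0.026, 0.006, 0.014 and 0.035. On chromosome 14, 32% of genes rose and 13.9% fell in LLC1, while on chromosome 17, 11.4% rose and 31.2% fell. No test of these medians was run, and their part in the gene changes above was not tested.

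**Figure D5:**
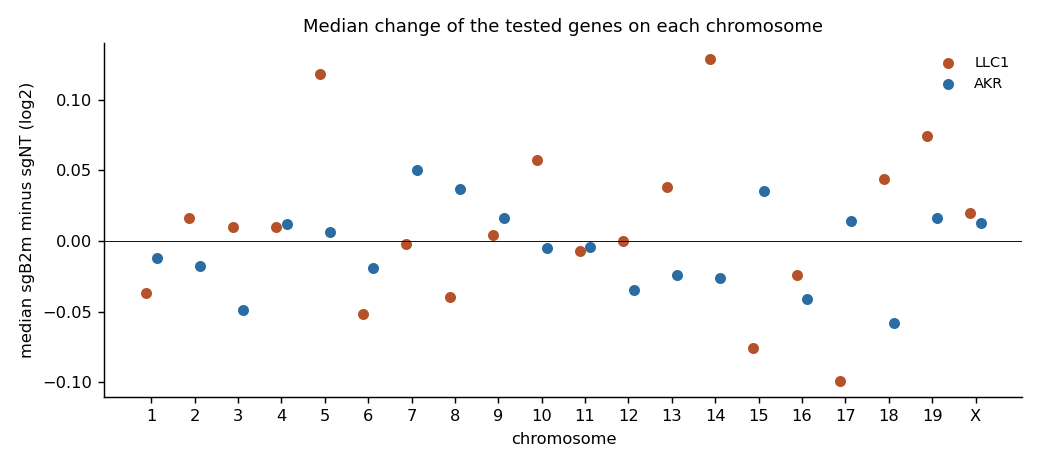
Median change (y axis, sgB2m minus sgNT, log2) of the tested genes on each chromosome (x axis), with LLC1 left and AKR right at each position. LLC1 medians reach 0.129 on chromosome 14 and -0.099 on chromosome 17, while AKR medians lie between -0.058 and 0.05.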

How the data were processed

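Bulk RNA-seq of LLC1 and AKR cells was analysed, 3 libraries per group. Per the labels' protocols, total RNA was made into stranded libraries and sequenced from both ends. The deposited values are log2 normalised counts, with each line in a table of its own. Per the submitters' processing notes, the authors used STAR, DESeq2 and FastQC 0.11.5 and the mm10 build, and the gene counter and its use of strand are not given in the sources used here, so overlapping antisense genes may share reads. With the logarithm undone and 1 subtracted, values were whole multiples of 1 step per library, within 0.05 reads for 100% of values. The unit was therefore taken as log2(count / size factor + 1), which draws log2 changes of weak genes toward 0. Counts in the text are on that normalised linear scale.

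In R 4.3.3 with limma 3.58.1, 1 model of 4 group means over the 12 libraries, with an intensity trend and no covariate, gave the change in each line and their difference. Two-sided moderated tests were corrected over all 14211 genes (Benjamini-Hochberg) and called at 0.05. Values are log2 changes ± SE, and folds are ratios of mean counts. Each gene has 1 variance for both lines, so scatter among near-silent libraries of 1 line widens the SE in the other. An uncalled change therefore does not show that a line was unchanged. The sgB2m and sgNT groups did not overlap for 53% of all genes tested in LLC1 and 54% in AKR. The code was tested on simulated data. Named genes were B2m and Cxcl16, and, leaving out predicted genes, the 8 largest shared, opposite and parting changes each way, and up to 2 shared and 3 parting members of each list. Some genes that the rule picks are not reported here. Genes named outside this rule were chosen after their values were seen. Members and lists were chosen with earlier results of these data known. Positions came from GENCODE matched by gene ID (14202 of 14211 genes), and promoters from RefSeq (GRCm38.p6). The title of 1 LLC1 control spells its guide differently from its library name, which was used. Alternatives were other filters, normalisations, spreads, a replicate block and leaving out each library.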

Additional observations from a re-analysis of the deposited data

Results flagged for a closer look

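The genes below were called in both lines in opposite directions, with the difference itself called by limma's moderated test. For Ighm, Gbp8, Havcr2 and Kcnip1 only the fitted difference is given, and no support is drawn from the test. Ighm passed the filter in AKR through sgNT alone, Havcr2 in LLC1 through sgNT alone and Kcnip1 in LLC1 through sgB2m alone. Gbp8 passed in LLC1 through sgNT alone and in AKR through sgB2m alone. Values are the LLC1 change minus the AKR change on the log2 scale. Those with the higher change in LLC1 were Ighm at 7.60, Kcnip1 at 3.53, Dlg2 at 3.34, Scara5 at 3.29, Adamts1 at 3.02, Atoh8 at 2.61, Ogn at 2.48 and Pcdhga11 at 2.16. Those with the lower change in LLC1 were Gbp8 at -5.53, Mmp3 at -3.89, Havcr2 at -3.77, Shroom3 at -3.57, Il11 at -3.01, Cd68 at -2.73 and Ablim3 at -2.59.

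Over the alternative settings, the difference ranged from 5.02 to 8.6 for Ighm, from -5.8 to -3.64 for Gbp8 and from -4.34 to -2.51 for Havcr2. Ighm had no reads in AKR sgB2m, so its fitted value depends on the constant added and its fall in AKR is known only as at least 6.15-fold.

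Library values separate these by abundance. Ogn, a small matrix proteoglycan, had counts of 4917, 4908 and 4564 in LLC1 sgB2m and 1781, 1909 and 1838 in LLC1 sgNT, but 21.9, 6.12 and 30.1 in AKR sgB2m and 33.1, 39.9 and 34.7 in AKR sgNT. Scara5, a ferritin receptor, had 96.2, 144 and 118 in LLC1 sgB2m and 40.6, 61.3 and 53.6 in LLC1 sgNT, and 15.9, 8.16 and 20.7 in AKR sgB2m and 41.9, 73 and 83.8 in AKR sgNT. The groups of Kcnip1 overlapped in AKR and those of Pcdhga11, whose cluster shares exons between genes, overlapped in LLC1.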

How the results depend on the processing

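The counts of genes called in LLC1, in AKR, in the same direction and in opposite directions were recomputed under 24 alternatives, and that of the difference under 23, since separate fits give none; each stayed within 1.5 times its value. Over 12 leave-one-out fits, the difference was called for between 2545 and 2884 genes with the higher change in LLC1 and between 2507 and 2791 with the lower. With a replicate block in each line, 2690 were higher and 2673 lower, and the calls numbered 2752 and 2944 in LLC1 and 2904 and 3252 in AKR. In LLC1, deviations of same-numbered libraries correlated at 0.057 to 0.081 and those of other-numbered ones at -0.116 to 0.049. In AKR, same-numbered libraries correlated at -0.212 to 0.18 and the others at -0.18 to 0.226. The main fit did not pair libraries by number. Of 55 shared and 94 parting named results, 39 and 65 were tested and called in every alternative, the others lost a call or fell below a filter, and none changed sign. With all 24 libraries setting the spread, the differences of Krt8 (adjusted p = 0.528), Krt18 (0.439), Flt1 (0.133), Egfl7 (0.0717) and Raet1e (0.516) and the shared calls of Snai2 (0.236) and Cox6a2 (0.0575) were lost. Quantile normalisation removed the difference of mt-Co1 (adjusted p = 1). Without LLC1 sgB2m replicate 3, the shared call of Tapbp was lost (0.0669). The cause was not tested. Low counts limit Gbp8, Psmb8, Havcr2, Irf8, Trim69 and Cxcl16, which were untested in at least 4 settings.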
